A study of Mus musculus with 2 samples.

Results

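The genes followed here are 7 genes of LIF-STAT3 signalling: the receptor subunits Lifr and Il6st, the kinase Jak1, the transcription factor Stat3, its inhibitor Socs3, and the kinases Pim1 and Pim3. They were chosen by symbol, as all entries of the table of predicted microRNA sites and of the list of enriched Ago2 clusters that carry one of these names. They are 7 of 15271 genes in the site table and hold 592 of its 1641948 entries and 41 of the 6211 clusters. The 2 iCLIP samples came from mouse embryonic stem cells whose single Argonaute protein was human Ago2 under doxycycline control, carrying a FLAG-HA tag in the line TT-FHAgo2 and no tag in the control line TT-Ago2. In iCLIP, light fixes a protein to the RNA it touches, and the RNA fragments that come down with the protein are sequenced. Both lines were clonal, were propagated at 0.1 µg/mL doxycycline, and were induced at 2.5 µg/mL for 24 h. Both grew on gelatin in medium with 15% serum and LIF at 1000 U/mL, so the pathway's ligand was supplied throughout. Each group had 1 library, which leaves the spread between cultures unmeasured, and what 1 clone differs in from another cannot be told apart from the tag.

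Leukemia inhibitory factor (LIF) binds LIFR, which pairs with gp130, the product of Il6st. The JAK kinases on their tails phosphorylate STAT3, which enters the nucleus and activates genes such as Socs3, whose protein binds gp130 and JAK and ends the signal, and Pim1 and Pim3, whose proteins are survival kinases. In mouse embryonic stem cells this pathway maintains self-renewal. Argonaute carries a microRNA whose seed, bases 2 to 8, pairs with a match in the target, most often in the 3' UTR, and the target is then repressed.

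The values rested on 789000 reads of the tagged library. Files of the untagged library were not analysed here, and its reads per cluster are the whole numbers implied by the authors' enrichment values, whose scaling is unknown. All 8 embryonic stem cell markers on the list used (Nanog and Esrrb among them) were listed, at 84.2 to 609 FPKM. FPKM, the authors' expression unit, scales fragments by transcript length and library size, and each gene is given by its highest listed isoform. Of 4 markers each, 1 for fibroblasts, 2 for primitive endoderm, 2 for trophectoderm and 2 for neural tissue and mesoderm were listed, the highest at 3.95 FPKM. All intervals below are exact 95% binomial intervals and cover counting error alone; reads may be PCR copies of each other.

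The authors' table lists matches to the seeds of 50 microRNAs, as 8mers, 7mers and 6mers, and further 8mers that extend none of them, which serve here as control. Many of these control 8mers match the seed of another mouse microRNA, so they are not a background free of such matches. The sites under clusters that carry a match of 7 or 8 bases are shown because the results per gene turn on them. Positions are on mm9, letters are from the authors' site table, and capitals mark the match to a listed seed, while lower case adds further listed or control matches that overlap or abut it.
Il6st chr13:113294874-113294882, plus strand: TTTGCACTG
Il6st chr13:113295498-113295506, plus strand: AGCACTTTA
Stat3 chr11:100749856-100749863, minus strand: GGCACTTT
Stat3 chr11:100749609-100749619, minus strand: ctctGCACTTT
Jak1 chr4:100825003-100825020, minus strand: tatatGCACTTTGTTTAC
Socs3 chr11:117827599-117827606, minus strand: TGTTTACA
Socs3 chr11:117827645-117827651, minus strand: GGCAGCT
Pim1 chr17:29632164-29632170, plus strand: TGCTGCT
Pim1 chr17:29632142-29632149, plus strand: TACTTGAA
Pim3 chr15:88695329-88695343, plus strand: tgctttgaGTGCCTT
Pim3 chr15:88695433-88695440, plus strand: TACTTGAA
Pim3 chr15:88695525-88695536, plus strand: acctcCAACCCT

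The microRNAs whose seeds these sites match are given once per seed, from RefSeq (GRCm38.p6), with the seed in capitals. Of the 50 seeds, 44 had a mature mouse microRNA in the RefSeq set used here. GTGCCTT, printed above for Pim3, had no match in that set, so no microRNA is given for it. A gap in that set does not mean that no mouse microRNA has this seed. The seed of miR-17-5p is shared by miR-20a-5p, miR-20b-5p, miR-93-5p, miR-106a-5p and miR-106b-5p, and that of miR-294-3p by miR-291a-3p, miR-295-3p, miR-302b-3p and miR-302d-3p, which are abundant microRNAs of pluripotent cells.
mmu-miR-17-5p: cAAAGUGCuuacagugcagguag
mmu-miR-294-3p: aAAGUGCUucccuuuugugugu
mmu-miR-290a-3p: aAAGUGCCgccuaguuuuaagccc
mmu-miR-19a-3p: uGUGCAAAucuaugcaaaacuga
mmu-miR-148a-3p: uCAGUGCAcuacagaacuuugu
mmu-miR-30a-5p: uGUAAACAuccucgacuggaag
mmu-miR-15a-5p: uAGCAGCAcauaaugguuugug
mmu-miR-22-3p: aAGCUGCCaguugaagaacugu
mmu-miR-26a-5p: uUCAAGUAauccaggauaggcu
mmu-miR-296-3p: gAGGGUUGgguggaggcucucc

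All 7 genes had at least 1 enriched Ago2 cluster, against 17.1% of the 15271 genes (2613). A cluster is a stretch of piled-up tagged reads that passed the authors' threshold of p under 0.05 in a one-sided exact binomial test of its tagged against its untagged reads. Such a p sets 2 libraries against each other and says nothing of the spread between cultures. With p under 0.01, 6 of the 7 genes kept a cluster, against 10.5% of all genes, and Jak1 did not. The 7 genes were also more highly expressed than most: their median listed expression was 29.2 FPKM, against 4.59 over all genes and 13.9 over genes with a cluster. Among genes within 2-fold of each member's FPKM, the share with a cluster was 27% for Jak1, 27.5% for Il6st, 28.2% for Stat3, 29.8% for Pim1, 30.9% for Socs3 and 31.6% for Pim3, and 4.34% for Lifr. Pim3 led with 16 clusters, followed by Il6st with 7, Lifr, Socs3 and Pim1 with 5 each, Stat3 with 2 and Jak1 with 1. At least 5 clusters were held by 5 of the 7 genes and by 230 of all genes (1.51%).

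**Figure D1:**
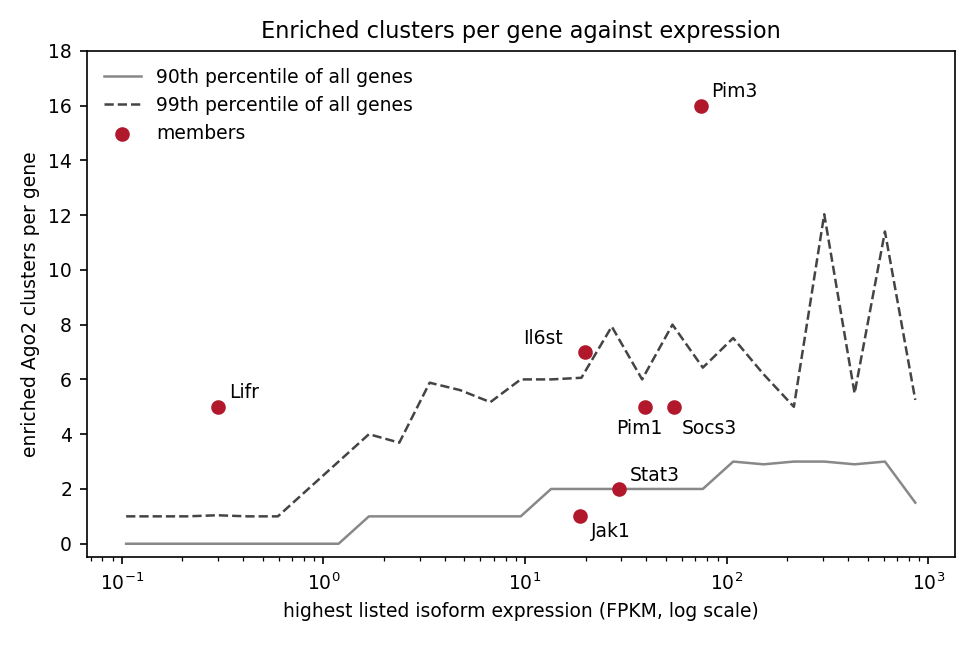
Enriched Ago2 clusters per gene (y axis) against the highest listed isoform expression (x axis, FPKM, log scale) in the tagged library. Points are the 7 genes; lines are the 90th and 99th percentile of all genes in strata of 0.5 log2 FPKM with at least 20 genes. Pim3 (16 clusters at 74.2 FPKM), Il6st (7 at 19.9) and Lifr (5 at 0.301) lie above the 99th percentile of their strata, while Stat3 (2) and Jak1 (1) lie at or below the 90th.

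The 41 clusters held 434 tagged reads, or 342 when overlapping clusters are reduced to those that do not share ground, against 3 implied untagged reads. In the 3' UTR lay 37 of them (90.2%), compared with 61.3% of all clusters of the library. The authors annotated the other 4 as a coding-sequence cluster of Pim3, an intronic cluster of Socs3, and 2 clusters of Pim1 within 5 kb of the gene. No untagged read was implied for 38 of the 41, against 85.6% of all clusters. Overlapping clusters fell together into 24 separate loci, and 24 of the 41 clusters overlapped another one, a relation that 28% of all clusters had. Cluster size was like that of the library, with a median of 44 nt against 43 nt and 7 tagged reads against 7. A match of 7 or 8 bases to a listed seed lay under 13 clusters (31.7%), beside 34.2% over all clusters. All 13 lay in the 3' UTR, where 46.3% of the library's clusters have such a match. In all, 25 of the 41 clusters touched a listed match of any length.

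Lifr, the ligand-binding receptor subunit, was the least expressed of the 7, at 0.301 FPKM, and held 5 clusters with 55 tagged reads against 1 implied untagged read. All 5 lie outside the stretch of 3' UTR sites listed for Lifr, so the FPKM, and the rank among genes of like FPKM, may belong to another isoform than the one that holds the clusters. Of 2604 genes within 2-fold of its FPKM, 5 had as many (0.192%), Lifr included. The other 4, named after their values were seen, were Camk2n1, Cep170, Fndc3b and Zfp871. The clusters were spread over 11925 nt of chromosome 15. The largest, chr15:7144690-7144808, held 27 tagged reads against 0, which is at least 9-fold with the untagged count set at a floor of 3 counts per cluster, used in all such bounds. These bounds compare counts and are not corrected for the depth of the untagged library. Its exact binomial p in the authors' deposited table was 7.4506e-09. The most upstream, chr15:7135142-7135210, held 10 against 1. The remaining 3 clusters, between chr15:7146961 and chr15:7147066, held 5, 5 and 8 tagged reads against 0, and the first pair overlapped each other. The single cluster of 27 reads thus held about as many as the other 4 together, and all 5 were annotated as 3' UTR.

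None of the 5 Lifr clusters overlapped a site of a listed seed. The table's listed 3' UTR sites for Lifr end at chr15:7141716, and 4 of the 5 clusters lie past that point, so sites under them were not in the table for Lifr. Within the stretch that the table covers, 8 of 10 listed 3' UTR sites had at least 1 read (80%, 44.4 to 97.5), each with 1 to 3 reads. Control 8mers of genes of the same expression and region gave an expected 4.85%. The 3 sites with 3 reads lay next to each other, TTTGAT (the 6mer of miR-291a-5p), TGAGCC (miR-24-3p) and AACCCT (miR-296-3p), between chr15:7141396 and chr15:7141417. All 10 listed 3' UTR sites of Lifr were 6mers. Of its control 8mers in the 3' UTR, 1 of 11 had a read (9.09%, 0.23 to 41.3), an interval that does not reach that of the listed sites. The 4 control 8mers that were set aside because they overlap a listed match had 1 to 3 reads each, so the reads of Lifr lie in a few short stretches that neighbouring sites share.

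Il6st, which encodes the shared signal transducer gp130, was listed at 19.9 FPKM and had 7 clusters, all in the 3' UTR and within 1466 nt of each other. They held 69 tagged reads (57 without double use of overlapping clusters) against 1. Of 3503 genes near its FPKM, 39 (1.11%) had as many. The largest cluster, chr13:113294821-113294900, held 17 tagged reads against 0 (at least 5.67-fold; exact binomial p = 7.6294e-06 in the authors' deposited table). It covers the 9 bases TTTGCACTG, in which a match to miR-19a-3p and miR-19b-3p overlaps a match to miR-148a-3p, miR-148b-3p and miR-152-3p. Those matches carried 22 and 21 reads and a phastCons score, the probability of being conserved between species, of 1. The cluster chr13:113295471-113295538, with 12 tagged reads against 1, covers AGCACTTTA, where a 7mer of the miR-294-3p seed overlaps an 8mer of the miR-17-5p seed; they carried 17 and 18 reads. A further cluster of 12 reads against 0, chr13:113296182-113296238, lies over the 6mer GCACTT with 13 reads, a match that the miR-294-3p and miR-290a-3p seeds share, at a phastCons score of 0.0007. The control 8mer TGCACTTA holds that 6mer, had 13 reads too, and is a longer match, to the seeds of miR-291b-3p and miR-350-5p. The cluster of 9 reads at chr13:113295795-113295838 overlapped no listed site. In all, 18 of 34 listed 3' UTR sites had a read (52.9%, 35.1 to 70.2, expected 19.3%), and so had 22 of 45 control 8mers there (48.9%, 33.7 to 64.2). The intervals of these shares overlap. The reads were less evenly placed, since 132 lay at the listed sites and 49 at the controls, with at most 22 and 7 at a single site. With the 14 control 8mers set aside for touching a listed match, the controls held 76 reads, at most 13 at a site.

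Jak1, the kinase bound to gp130, had the least Ago2 signal of the 7. At 18.8 FPKM it held 1 cluster of 6 tagged reads against 0, chr4:100824999-100825041, with an exact binomial p of 0.0156 in the authors' deposited table and a bound of at least 2-fold. Near its FPKM, 968 of 3591 genes (27%) had at least 1. The cluster covers a match to the miR-17-5p seed that shares its last base with a match to the miR-30a-5p seed; both carried 8 reads and had a phastCons score of 1. A further miR-30a-5p match, TGTTTAC at chr4:100825041-100825047, touched the cluster's edge with 4 reads. Of 17 listed 3' UTR sites, 7 had a read (41.2%, 18.4 to 67.1, expected 19.3%), as had 5 of 15 control 8mers there (33.3%, 11.8 to 61.6). Jak1 has most of its predicted sites in coding sequence, where 7 of 72 had a read (9.72%, 4 to 19), next to an expected 12.2%.

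Stat3, the transcription factor at the pathway's centre, was listed at 29.2 FPKM and had 2 clusters, each of 7 tagged reads against 0 (at least 2.33-fold each; exact binomial p = 0.0078 each in the authors' deposited table). Of 3026 genes near its FPKM, 407 (13.5%) had as many. Both clusters, chr11:100749848-100749896 and chr11:100749590-100749628, lay over GCACTTT, the match to the miR-17-5p seed. At the former, GGCACTTT also holds GGCACTT, the match to miR-290a-3p, and both matches had 9 reads. At the latter, GCACTTT and the overlapping 6mer CTCTGC of miR-298-5p had 7 reads each. The match GCACTTTA at chr11:100750856-100750863, in the coding sequence, had 3 reads and no cluster. In the 3' UTR 14 of 33 listed sites had a read (42.4%, 25.5 to 60.8, expected 19.9%), and 16 of 26 control 8mers (61.5%, 40.6 to 79.8). The 2 intervals overlap, with the control share the higher of the pair. Reads numbered 47 at the listed sites and 18 at the controls, where no site had more than 3.

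Socs3, the feedback inhibitor induced by STAT3, held the largest single cluster of the 7 genes. At chr11:117827491-117827652, 42 tagged reads stood against 0 (at least 14-fold; exact binomial p = 2.2737e-13 in the authors' deposited table). The cluster is 162 nt wide. Its highest site, with 55 reads, was the 8mer TGTTTACA of miR-30a-5p and its relatives at chr11:117827599-117827606, followed by the 6mer cacttt of the miR-17-5p seed at chr11:117827581-117827586, with 50. Both had a phastCons score of 1. Sites can carry more reads than the cluster over them, so reads of sites and of clusters were counted differently by the authors and are not compared with each other here. The 7mer GGCAGCT of miR-22-3p had 7 reads and the 6mer TGAAAA of miR-335-3p had 18. Further clusters held 9 and 8 reads, overlapping at the other end of the 3' UTR, and 5 reads just downstream of the large cluster. A cluster of 6 reads was annotated as intronic by the authors, and it starts 93 nt upstream of the first cluster annotated as 3' UTR. Socs3 was listed at 54.6 FPKM, and 64 of 2007 genes near it (3.19%) had 5 clusters or more.

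Reads lay along most of the 3' UTR of Socs3. All 28 of its listed 3' UTR sites had at least 1 read (100%, 87.7 to 100, expected 22.5%), and 19 had at least 2. Control 8mers of the same 3' UTR had a read at 15 of 18 (83.3%, 58.6 to 96.4). The listed sites held 211 reads and the controls 97, or 184 with the 13 control 8mers set aside for touching a listed match. The site with most reads among the controls had 21, TGTCTGAA under the large cluster.

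**Figure D2:**
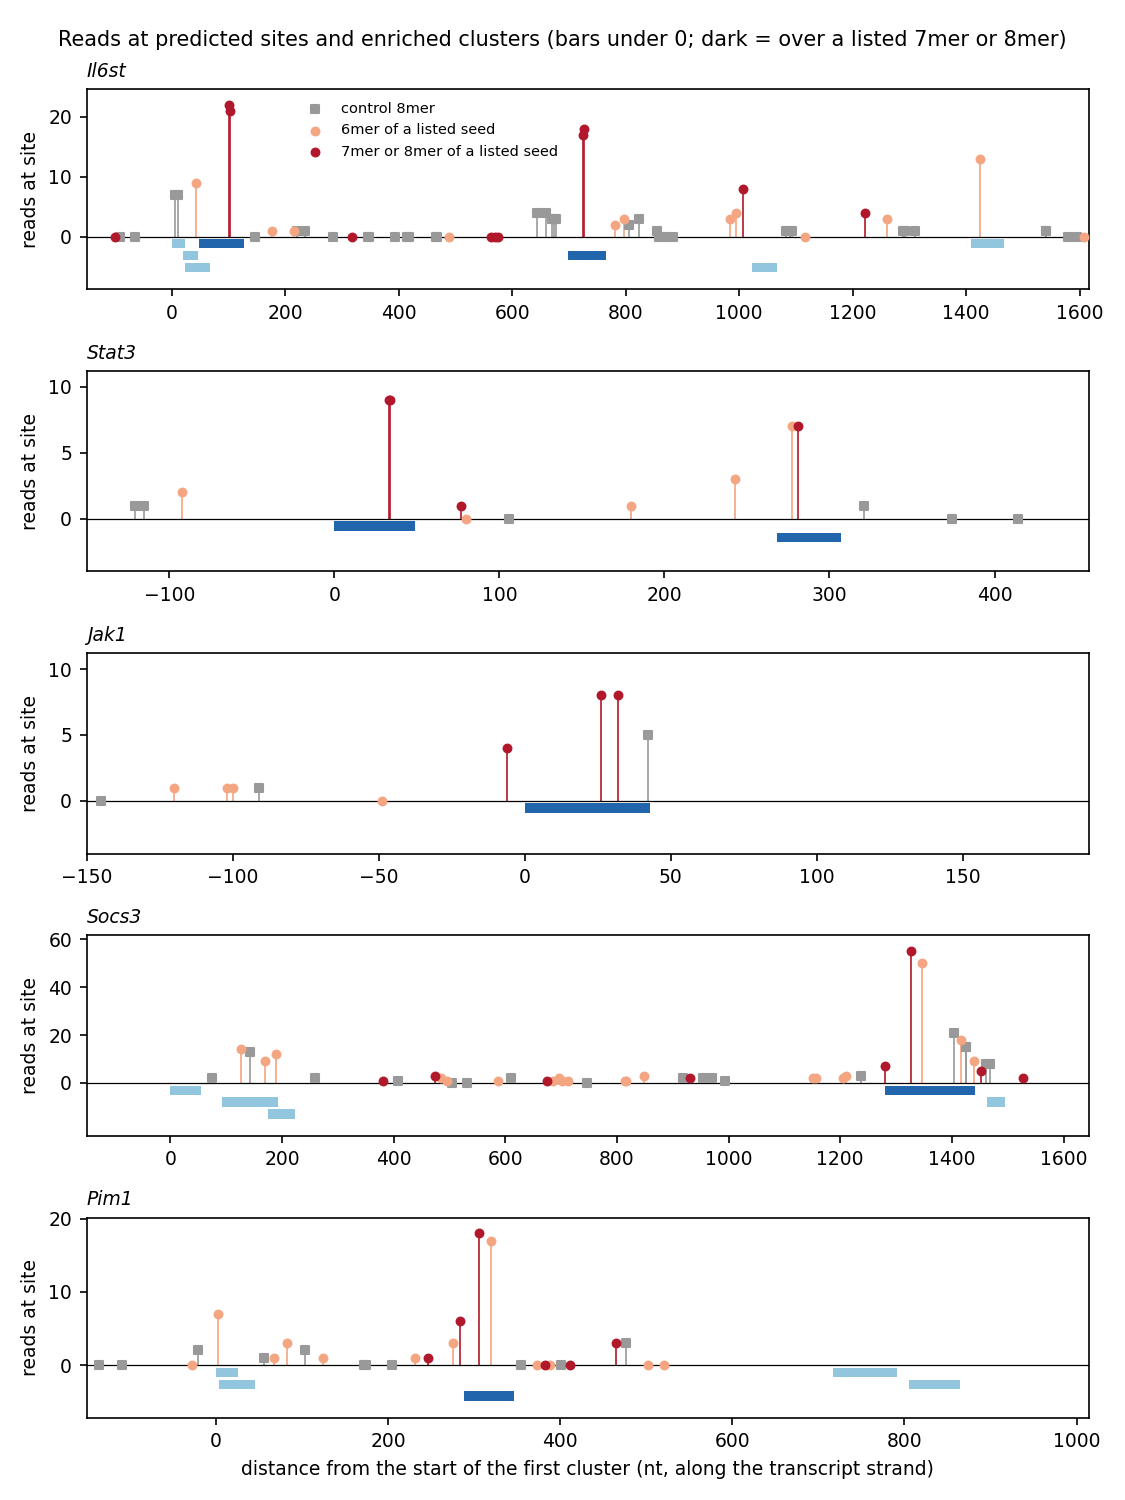
Reads at each predicted site (y axis) along Il6st, Stat3, Jak1, Socs3 and Pim1, by distance in nt from the start of the gene's most upstream cluster (x axis, along the transcript strand). Red points are 7mers or 8mers of listed seeds, orange points 6mers, grey squares control 8mers; bars under 0 are enriched clusters, dark where a listed 7mer or 8mer lies under them. Control 8mers set aside for touching a listed match are not drawn. The highest points are the 8mer and the 6mer of Socs3 with 55 and 50 reads, the highest of Il6st is a 7mer with 22, and the last 2 clusters of Pim1 have no predicted site over them.

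Pim1, the survival kinase that is a classical STAT3 target, was listed at 39.5 FPKM and had 5 clusters with 67 tagged reads (61 without double use) against 0. Near its FPKM 70 of 2555 genes (2.74%) had as many. Its largest clusters, chr17:29632575-29632648 with 20 tagged reads and chr17:29632663-29632721 with 19, both against 0, were annotated by the authors as within 5 kb of the gene. With the floor used above, their reads are at least 6.67-fold and 6.33-fold the implied untagged counts, and no predicted site of Pim1 reaches them. The cluster chr17:29632146-29632204 in the annotated 3' UTR held 16 reads against 0 (at least 5.33-fold; exact binomial p = 1.5259e-05 in the authors' deposited table). Under it lay TGCTGCT, the 7mer of the miR-15a-5p seed, with 18 reads, the 6mer CTCTGC of miR-298-5p with 17, and TACTTGAA, the 8mer of miR-26a-5p and miR-26b-5p, with 6. All of these had a phastCons score of 1. An overlapping pair of clusters with 6 reads each lay further upstream over the 6mer GGGCCC of miR-296-5p, which had 7 reads. Of 19 listed 3' UTR sites, 12 had a read (63.2%, 38.4 to 83.7, expected 23.9%), as had 7 of 14 in the coding sequence (50%, 23 to 77, expected 15.6%). Control 8mers had a read at 4 of 11 sites in the 3' UTR (36.4%, 10.9 to 69.2) and at 10 of 19 in the coding sequence (52.6%, 28.9 to 75.6), and each interval overlaps that of the listed sites.

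Pim3, the kinase of the same family with the highest expression of the 7 genes (74.2 FPKM), was also the one with the most Ago2 signal. Its 16 clusters held 153 tagged reads against 1, and 92 reads when overlapping clusters are counted without double use. Merging overlapping clusters left 5 loci, so that much of the count of 16 comes from short clusters laid over each other. In all the site table, 6 genes (0.0393%) had 16 clusters or more, and of the 1535 genes within 2-fold of its FPKM, 2 had as many. The other one, named after its value was seen, was Fgf4, with 20 clusters. With an authors' p under 0.01, 9 clusters of Pim3 remained.

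The clusters of Pim3 ran over 1249 nt of chromosome 15. The most upstream, chr15:88694819-88694846 in the coding sequence, held 5 tagged reads against 0. The next locus, chr15:88695231-88695448, held 5 clusters with 15, 36, 6, 6 and 6 tagged reads against 0. The one after it, chr15:88695498-88695721, held 7 clusters with 5 to 13 reads, of which the widest, chr15:88695530-88695640, had 13 against 1. The last 2 loci, chr15:88695911-88696009 and chr15:88696025-88696067, held clusters of 6, 10 and 8 reads against 0. The signal was thus densest between chr15:88695231 and chr15:88695721, the upstream part of the clustered stretch of the 3' UTR.

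The largest cluster of Pim3, chr15:88695285-88695420, held 36 tagged reads against 0 (at least 12-fold; exact binomial p = 1.4552e-11 in the authors' deposited table). Its sites carried the most reads of the gene. In tgctttgaGTGCCTT, the 7mer GTGCCTT of a listed seed had 45 reads and the 6mer TTTGAG, the match of miR-290a-5p, miR-292a-5p and miR-293-5p, had 48. The 6mer GCTGCT of the miR-15a-5p seed, downstream at chr15:88695351-88695356, had 47, and the 6mer CGGCAC of miR-293-3p, upstream at chr15:88695308-88695313, had 27. The control 8mer TGCTTTGA, which overlaps TTTGAG, had 51 reads and matches the seeds of miR-330-3p and miR-6240. Matches of 4 listed seeds and this control thus shared the reads of a single cluster. Which of them the reads belong to cannot be told from these data. The phastCons score was 0.9996 at GTGCCTT and 0.8008 at GCTGCT.

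Under the smaller clusters of Pim3, the 8mer TACTTGAA of miR-26a-5p had 8 reads, lying in 2 overlapping clusters of 6 reads each. The 7mer CAACCCT of miR-296-3p had 12 reads and lay in 3 overlapping clusters of 5, 7 and 13 reads. The stretch cacaagcaatgcaa at chr15:88695569-88695582, which begins with the 6mer CACAAG of a listed seed, had 19 to 21 reads. A match to the miR-17-5p seed, the 6mer cacttt at chr15:88695244-88695249, had 15. In contrast to GTGCCTT, the 8mer TACTTGAA and the 7mer CAACCCT of Pim3 had phastCons scores of 0.0015 and 0.0004. The same 8mer in Pim1 had a score of 1 and 6 reads.

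**Figure D3:**
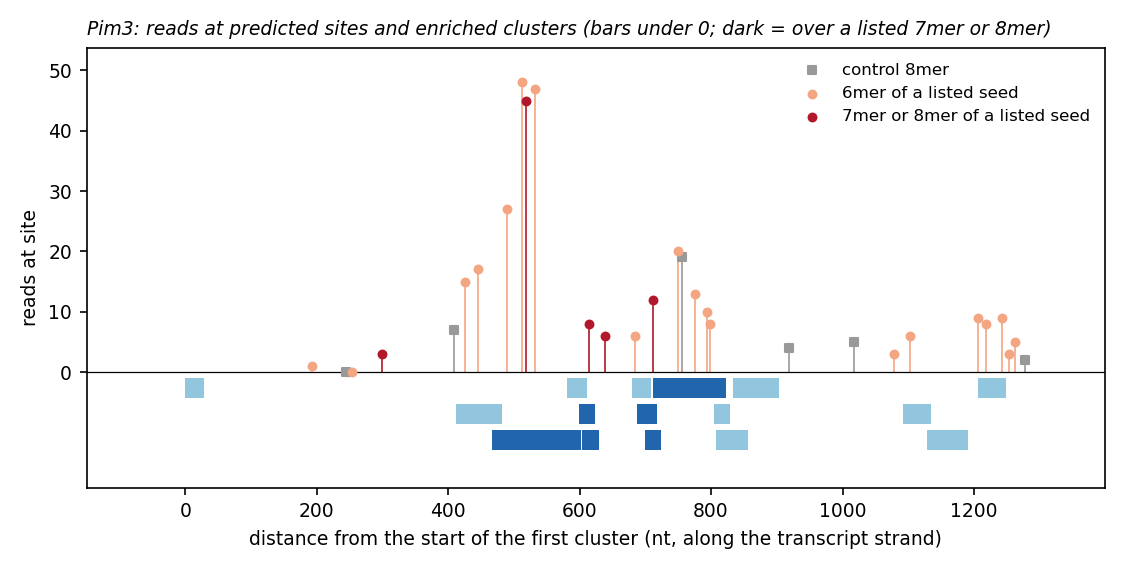
Reads at each predicted site of Pim3 (y axis) by distance in nt from the start of its most upstream cluster (x axis, along the transcript strand). Red points are 7mers or 8mers of listed seeds, orange points 6mers, grey squares control 8mers, and bars under 0 are the 16 enriched clusters, dark where a listed 7mer or 8mer lies under them. Control 8mers set aside for touching a listed match are not drawn, 1 of them with 51 reads. The highest points drawn, with 45 to 48 reads, lie over the largest cluster, and the sites at either end have fewer than 10 each.

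All 21 listed 3' UTR sites of Pim3 had at least 2 reads (100%, 83.9 to 100, against an expected 25.5% with at least 1). The 5 control 8mers of that 3' UTR all had a read as well (100%, 47.8 to 100). Over all regions of Pim3, 24 of 28 listed sites (85.7%, 67.3 to 96) and 6 of 10 control 8mers (60%, 26.2 to 87.8) had a read, and these intervals overlap. Listed sites in the 3' UTR held 325 reads and controls 37, at most 48 and 19 at a single site. With the 7 control 8mers set aside for touching a listed match, the controls held 160 reads, and the site with most reads of the gene, 51, was such a control, the tgctttga that overlaps TTTGAG. Of the 21 listed sites, 17 lay in a cluster.

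Across the 7 genes, 108 of 162 listed 3' UTR sites had a read (66.7%, 58.8 to 73.9), against 16.5% of the listed 3' UTR sites of all genes. The number expected from control 8mers of genes other than the 7, in the same region and stratum of 0.5 log2 FPKM, was 33.1. The observed number was thus 3.26 times the expected (2.88 to 3.61). Control 8mers of the same 3' UTRs had a read at 68 of 131 (51.9%, 43 to 60.7; all genes 11.5%), 2.69 times the expected (2.23 to 3.15). The excess of reads over genes of like expression was thus present at listed and control sites alike, and the intervals of the 2 ratios overlap. In the coding sequence 19 of 97 listed sites (19.6%, 12.2 to 28.9) had a read, with an expected 12.5%. Over all regions it was 130 of 273 listed sites (47.6%, 41.6 to 53.7; all genes 10.7%) and 88 of 223 controls (39.5%, 33 to 46.2; all genes 7.21%). Sites of a gene share its reads, so these intervals do not measure how genes differ.

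**Figure D4:**
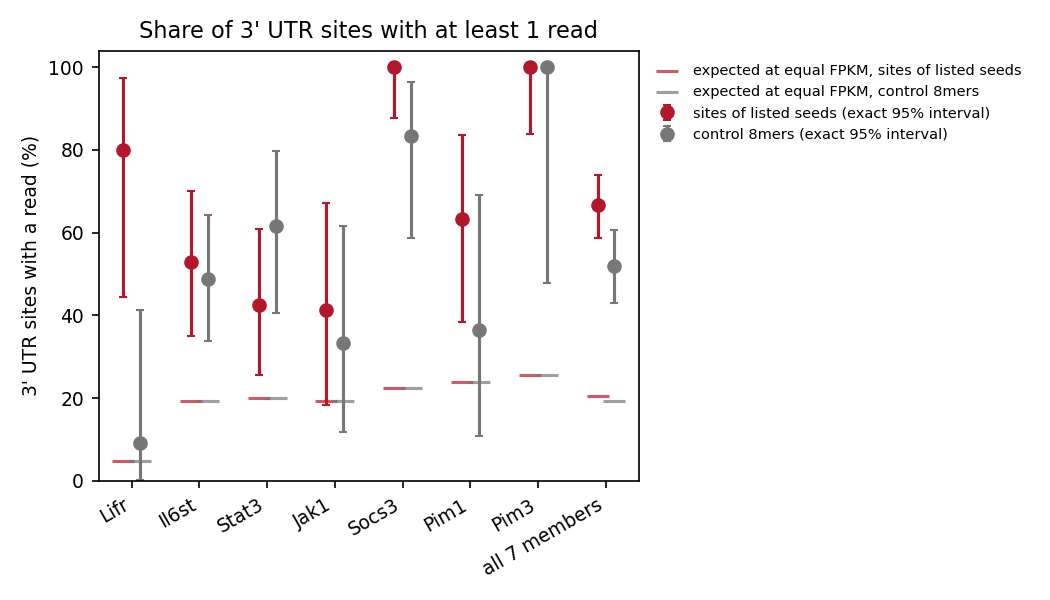
Percent of 3' UTR sites with at least 1 read (y axis) per gene, with exact 95% binomial intervals. Sites of listed seeds are red and control 8mers grey. Short horizontal marks are the percent expected from control 8mers of genes other than the 7 at equal FPKM. Listed sites of all 7 genes lie above the expected mark, Socs3 and Pim3 at 100%, and the interval of Jak1 reaches its mark.

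The genes differed in the order of these shares, from Socs3 and Pim3 at 100% through Lifr (80%), Pim1 (63.2%), Il6st (52.9%) and Stat3 (42.4%) to Jak1 (41.2%). The intervals of Socs3 and Pim3 do not reach those of Pim1, Il6st, Stat3 and Jak1, while the latter 4 overlap each other. Because sites of a gene share its reads, this gap between intervals does not measure a difference between genes. The authors' own log2 coverage, which relates reads at a site to expression, ordered the genes in another way: its median over sites with a read was 0.16 in Pim3, 0.07 in Lifr, -0.8 in Il6st, -1.73 in Socs3, -2.35 in Jak1, -2.48 in Stat3 and -2.62 in Pim1, on the log2 scale. Over the sites with a read of all genes the median was -1.68. Pim3, Lifr and Il6st thus lay above it, and Socs3, Jak1, Stat3 and Pim1 below it. The median of Lifr is the value of a site with 2 reads. Those of Jak1 and Stat3 are values of sites with 1 read, and that of Pim1 is the lowest of its sites. Such values depend on FPKM alone, so the order of Jak1, Stat3 and Pim1 is not an order of reads.

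The authors also gave the number of crosslink events at the most crosslinked position of each cluster, which marks where the protein touched the RNA. It was between 1 and 3 in the 30 clusters of fewer than 12 tagged reads, and between 2 and 7 in the other 11, of which 7 had 4 or more. The highest number, 7, was in the 16-read cluster of Pim1 over TGCTGCT. The 42-read cluster of Socs3 and the 20-read cluster of Pim1 had 5 each, and the 36-read cluster of Pim3 and the 27-read cluster of Lifr 4 each. Stat3 had 3 and 2, and Jak1 had 1.

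Pooled over the 7 genes, conserved sites carried more reads. Among the 162 listed 3' UTR sites, 37 had a phastCons score of at least 0.9, and 29 of these had a read (78.4%), with a median of 7 reads. Of the other 125, 79 had a read (63.2%), with a median of 1. The same order held over all genes, at 25.7% and 14.1%. Clusters covered 20 of the 37 conserved sites and 22 of the other 125. The genes did not all follow this order. In Pim1, 7 of 12 conserved sites (58.3%) and 5 of 7 others (71.4%) had a read, with a median of 1 in both, and in Lifr 0 of 1 and 8 of 9. In Socs3 and Pim3 all sites had a read, with medians of 16 and 2 in Socs3 and of 20 and 9 in Pim3. By length of match, 9 of 15 8mers, 25 of 35 7mers and 74 of 112 6mers had a read, and 4 (26.7%), 13 (37.1%) and 25 (22.3%) lay in a cluster. Over all genes the shares with a read were 21.2%, 19.7% and 15.1%, and those in a cluster 3.29%, 2.76% and 1.28%.

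The seed with sites in clusters of the most genes was that of miR-17-5p. Its match GCACTTT, or the 6mer within it, lay in a cluster in 5 of the 7 genes (Il6st, Jak1, Stat3, Socs3 and Pim3), at 6 sites in all. The background is high: 18.4% of all genes with a cluster have such a site in one, and 41.3% of those with at least 5 clusters. In the 7 genes this family had 13 sites, of which 8 had a read, with 111 reads together. Of these reads, 50 lay at the 6mer cacttt of Socs3, under the same cluster as the miR-30a-5p 8mer with 55. Neighbouring matches of different families can share reads, so the sums per family given here are not separate counts. By sites the miR-17-5p family was not alone, since the miR-22-3p seed also had 13, of which 9 had a read, with 24 reads together. The families of miR-294-3p and miR-290a-3p, whose seeds share a 6mer, had 4 sites, all with a read. Of these, 3 lay in clusters, of Il6st and Stat3, and the remaining one, in the coding sequence of Jak1, had 1 read and no cluster. A site of these seeds in a cluster was found in 27.9% of all genes with a cluster and in 57.4% of those with at least 5. The miR-15a-5p seed had 77 reads at 13 sites, most of them at GCTGCT of Pim3 and TGCTGCT of Pim1, and the miR-30a-5p seed had 67 reads at 3 sites, in Socs3 and Jak1, and 0 at a further site in Stat3. Other seeds with a site in a cluster of more than 1 gene were those of miR-298-5p (Pim1, Pim3 and Stat3), miR-22-3p (Pim3 and Socs3), miR-26a-5p (Pim1 and Pim3) and the 7mer ACACAAG (Pim3 and Socs3).

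Of 57 other genes of the pathway, listed from textbook knowledge, 54 were in the site table and 25 of these had a cluster (46.3%, 32.6 to 60.4), against 17.1% of all genes. Of 5 ligands in the table none had one, with Ctf1 the highest at 1.52 FPKM, and of 3 other receptors none, with Cntfr the highest at 2.38. Among 4 other kinases Tyk2, a relative of Jak1, had 1 cluster of 6 reads, and Pim2, the remaining Pim kinase, had none at 12.1 FPKM. Of 6 other STAT genes, Stat2 had 4 clusters with 26 reads, while Stat6 had none at 24.5 FPKM. All untagged numbers in these roles were 0.

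Inhibitors and phosphatases had clusters in 7 of 15 genes (46.7%), against 17.1% of all genes. Pias3, an inhibitor of STAT3, had 3 clusters with 27 reads and Pias2 had 2 with 18. The SOCS genes Socs6, Socs5 and Socs4 had 2 each, with 16, 12 and 11. At an authors' p under 0.01, Pias3 and Pias2 kept 2 each, Socs6 kept 1, and Socs5 and Socs4 kept 0. The 2 clusters of Pias2 formed 1 locus, as did those of Socs5. Ptpn2, a phosphatase that acts on JAK and STAT proteins, had none at 43.1 FPKM. In the MAPK and PI3K branches 5 of 9 genes (55.6%) had a cluster. The docking protein Gab1 led with 4 clusters in 2 loci and 40 reads at 2.06 FPKM. The exchange factor Sos1 followed with 2 clusters in 1 locus and 14 reads. Each of these genes had 0 implied untagged reads.

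Genes known as STAT3 targets in embryonic stem cells had clusters in 10 of 12 (83.3%, 51.6 to 97.9), against 17.1% of all genes. Their median of 30.8 FPKM was the highest of the roles. Among genes within 2-fold of Stat3, listed at 29.2 FPKM, the share with a cluster was 28.2%. The list was drawn up with earlier results of these data known. Mcl1, a survival factor of the Bcl2 family, had 17 clusters in 11 loci at 149 FPKM. Among the transcription factors, Esrrb had 5 clusters with 47 reads, Junb 3 with 30, Sall4 3 with 28 against 1, and Klf4 2 with 10. At an authors' p under 0.01, Esrrb kept 4 clusters, Junb 3, Sall4 1 and Klf4 0. The 2 clusters of Klf4 formed 1 locus and lay outside the 3' UTR. Tfcp2l1 had 10 clusters in 5 loci, of which 1 cluster had an authors' p under 0.01. Nanog had 7 in 6 loci, of which 5 clusters did. Myc had none at 17 FPKM. Counts of clusters thus rose from ligands and receptors, listed at low FPKM, to target genes, listed at high FPKM, and the part of expression in this order was not tested.

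**Figure D5:**
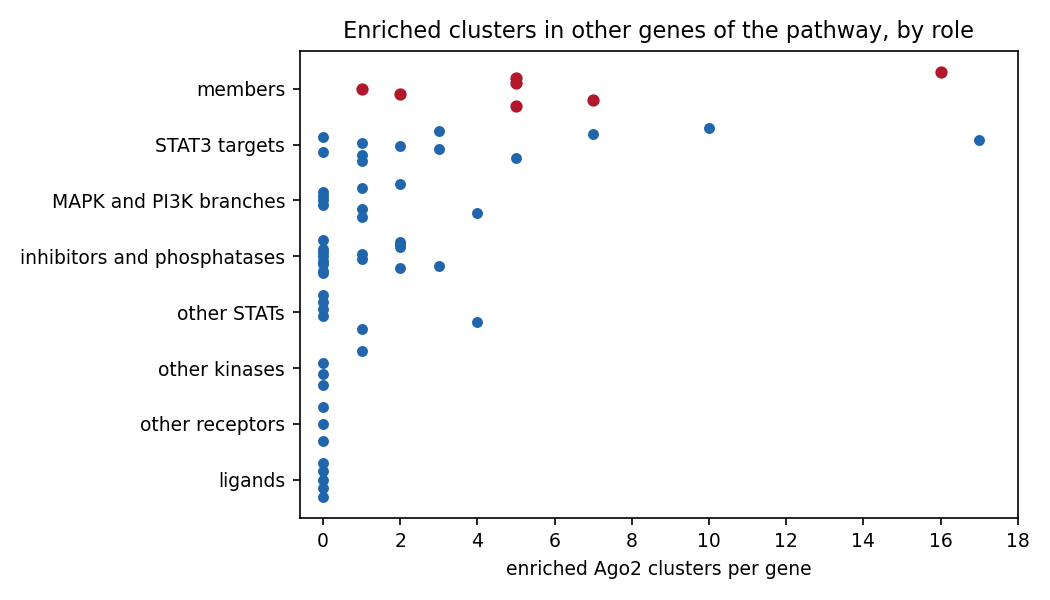
Enriched Ago2 clusters per gene (x axis) by role in the pathway (y axis); each blue point is 1 of the 54 other pathway genes in the site table and each red point 1 of the 7 genes. None of the ligands or other receptors has a cluster, and the STAT3 targets include Mcl1 with 17 and Tfcp2l1 with 10. With an authors' p under 0.01, Mcl1 keeps 11 and Tfcp2l1 keeps 1.

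The genes most like Pim3 were sought by the sum of absolute log2 ratios in clusters, tagged reads in clusters and FPKM, over this 1 library. The nearest were Aebp2 (14 clusters, 232 reads, 56.3 FPKM; distance 1.19), a partner of Polycomb repressive complex 2, and Mlec (10, 125, 59.8; distance 1.28), a lectin of the endoplasmic reticulum. Scd2, a fatty acid desaturase, had 12 clusters with 128 reads at 47.8 FPKM, Sgk1, a serine/threonine kinase, 11 with 114 at 97.2 FPKM, and N4bp1 8 with 162 at 48.7 FPKM. Pim3 had fewer loci (5) than Aebp2 (7), Mlec (6), Scd2 (7) and Sgk1 (8), and more than N4bp1 (3).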

How the data were processed

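The series measured Ago2-bound RNA by iCLIP in a tagged and an untagged cell line, with files of the tagged library. Reads were processed with Bowtie and TopHat on mm9 (NCBIM37), per the submitters' processing notes; no source used here gives versions, the cluster caller or where expression came from. Per the file headers, the cluster list gives a peak height, a signal in whole reads, and a score joining tagged reads, log2 enrichment and binomial p; a one-sided binomial test with probability 0.5 matched the authors' p in all 6211 clusters within 0.0001. The deposited site coverage is in rpm; dividing by 1.27 rpm gave a whole number, within 0.001, for each of 1641948 entries (100%), which recovers reads. Isoform expression is FPKM, listed from 0.1, conservation a phastCons score, and coverage over expression a log2 value, all made by the authors. The unit other was used for the joined score and crosslink text as the authors deposited them.

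Here, shorter matches nested in longer ones were set aside, as were control 8mers that touched a listed match, leaving 273 listed and 223 control sites in the 7 genes. The 8mers that extend none of the 50 listed 7mers served as control. In Lifr, Il6st and Stat3 most of them match the seed of another mouse microRNA. Overlap was counted from 1 nt, same strand, junction-spanning clusters (216) aside. Coordinates are 1-based. Python 3.11.15, pandas 2.3.3, numpy 2.4.6 and scipy 1.17.1 were used. The calculation of expected counts was checked on simulated sites drawn independently of each other, so sharing of reads within a gene was not covered. Genes and lists were chosen with earlier results of these data known. Named are the 7 genes, per role every gene with at least 2 clusters (or the leading one) and the highest-expressed without a cluster, the 5 genes nearest to Pim3, and per gene the 5 listed sites with most reads and each listed 7mer or 8mer in a cluster. A few genes that this rule or a count would name are not reported here. Alternatives are given in the closing section.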

Additional observations from a re-analysis of the deposited data

How the results depend on the processing

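Alternatives numbered 49 over 23 results, of which 26 stayed within 1.5 times the count or within the interval given. At p under 0.01 the clusters of the 7 genes fell from 41 to 26 and those of Pim3 from 16 to 9. Assigning clusters by overlap with a predicted site gave 27. Merging overlapping clusters, chosen after seeing the data, left 24 loci in the 7 genes and 5 in Pim3, and merging within 20 nt left 4 in Pim3. Reads of Pim3 clusters fell from 153 to 92 without overlapping clusters, also chosen after seeing the data. With at least 2 reads in place of 1, the share of listed sites was 29.7% in all, 30.8% in Lifr, 20.9% in Stat3, 5.49% in Jak1, 66.7% in Socs3 and 24.2% in Pim1. Cluster overlap in place of reads gave 15.4%. In 3' UTRs alone the share was 66.7% in all, 41.2% in Jak1 and 100% in Pim3. Expected numbers from listed-seed sites of genes other than the 7 gave an observed over expected ratio of 2.06 in place of 2.75. Among the 10898 genes of at least 1 FPKM, as many clusters were held by 0.844% (Il6st), 10.1% (Stat3), 22.2% (Jak1), 2.06% (Socs3) and 2.06% (Pim1) of genes; Lifr is below that limit and has no value. The cause of these differences was not tested, beyond what stricter limits remove by construction. Depth limits single clusters of 5 to 7 reads, which include all clusters of Jak1 and Stat3. No paired analysis was possible because there is 1 library per group and the untagged one was not analysed here.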
